A study of Homo sapiens with 2 samples.

Results

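The ZNF genes are the human genes that carry the symbol ZNF followed by a number, most of which encode proteins with C2H2 zinc fingers. They were chosen from the probe sets annotated with 1 gene symbol, and a gene was kept when a probe set reached 4.88 in either array, the log2 median over both arrays with control probe sets left out. Of 425 such genes on the array, 282 met this rule and 143 stayed below 4.88 in every probe set, among 13262 genes of any kind that met it. Each gene is represented by the passing probe set with the highest mean of both arrays. The rule used the level of a gene and not its difference between the arrays, except at the floor itself: 274 ZNF genes passed in both arrays, 6 passed only in the empty vector array and had to be lower with miR-130b, and 2 passed only in the miR-130b array and had to be higher.

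Both arrays profile PLC8024, a hepatocellular carcinoma cell line, after flow sorting for cells that lack the surface protein CD133. One culture of these cells carried a lentivirus for the microRNA miR-130b and the other carried the empty lentiviral vector, and each is represented by 1 array. For the miR-130b sample the source field speaks of transfection, whereas the treatment protocol gives lentiviral transduction. With 1 array per condition there is no replicate error, no test was made, and every difference below is the miR-130b value minus the empty vector value of these 2 arrays. Anything else that differs between the 2 cultures cannot be told apart from the vector, and neither can fewer cells of a kind from less RNA per cell. RMA compresses the differences of dim probe sets, which touches the ZNF genes because their median level was 6.62 in miR-130b cells and 6.67 in empty vector cells, against 7.60 and 7.58 over all measured genes.

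A C2H2 zinc finger is a short fold held by a zinc ion, and tandem fingers read DNA a few bases at a time. Many ZNF proteins also carry a KRAB domain, which recruits the scaffold protein TRIM28, the histone methyltransferase SETDB1 and HP1 proteins, and so places repressive chromatin over transposable elements. The KRAB genes multiplied by tandem duplication, so that many lie side by side in clusters on chromosome 19, and neighbours there are often close relatives in sequence. Some ZNF proteins have other work, in ribosome maturation, RNA binding or the mitotic spindle. Family membership rests here on the gene symbol, and protein sequences were not used.

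The agent that separates the 2 cultures is shown first, with its seed (bases 2 to 8, the stretch that pairs with target transcripts) in capitals. Sequences and positions are those of RefSeq on GRCh38.p14. The 3p strand of miR-130b lies at chr22:21653354-21653375 on the plus strand.
hsa-miR-130b-3p: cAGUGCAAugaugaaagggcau
hsa-miR-301a-3p: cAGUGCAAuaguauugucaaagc
hsa-miR-301b-3p: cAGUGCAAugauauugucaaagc
hsa-miR-454-3p: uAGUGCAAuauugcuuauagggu
hsa-miR-130b-5p: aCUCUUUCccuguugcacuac
The miR-301 and miR-454 strands carry the same 7-base seed as miR-130b-3p, and the 5p strand of the same hairpin carries another. No transcript sequences were used, so ZNF transcripts were not searched for matches to these seeds.

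As a whole the ZNF genes differed little between the arrays, and about as often as other genes. The median difference of the 282 ZNF genes was 0.05 on the log2 scale, with the middle 50% of them between -0.07 and 0.18, against a median of 0.03 over all 13262 measured genes. It stayed positive, at 0.03 after loess centring and at 0.02 after centring on the median of all measured genes. In the miR-130b array 160 ZNF genes (56.7%) were higher, 115 were lower and 7 had the same value, and of all measured genes 56.1% were higher. By a rule of size, 8 ZNF genes (2.84%) were at least 1.5-fold lower, where 2.68% of all measured genes were. A further 2 ZNF genes (0.709%) were at least 1.5-fold higher, against 0.294% of all measured genes. At 2-fold, 3 ZNF genes were lower, where 1.52% of all measured genes were, and 0 ZNF genes and 0 of all measured genes were higher. These shares lie near those of all measured genes, and the share on the higher side rests on 2 ZNF genes.

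**Figure D1:**
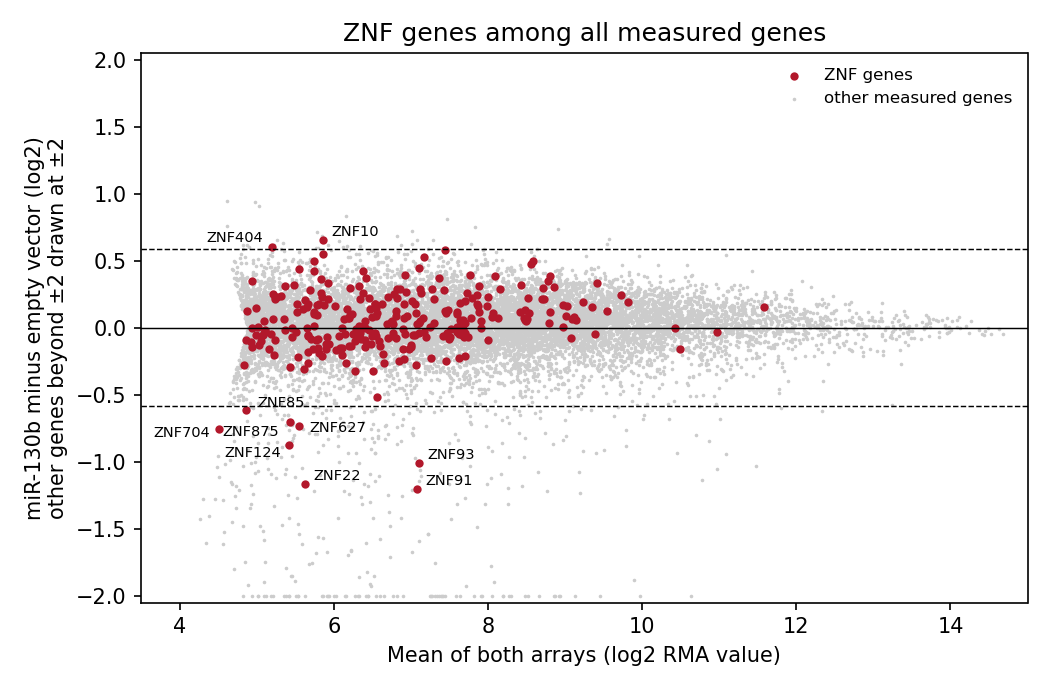
Each point is a gene, placed by the mean of its 2 log2 RMA values and by the miR-130b minus empty vector difference on the log2 scale, with ZNF genes in red and other measured genes in grey. Dashed lines mark 1.5-fold, and the 10 ZNF genes beyond it are named: 8 lie below the lower line and 2 above the upper one, while 272 lie between. Other genes beyond 2 on the log2 scale are drawn at the edge.

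The largest difference of any ZNF gene was that of ZNF91, a KRAB protein known to repress SVA retrotransposons. Its value was 6.48 in miR-130b cells, against 7.68 in empty vector cells, which is 2.30-fold lower. ZNF93, a KRAB protein known to repress L1 retrotransposons, had 6.60 in miR-130b cells and 7.61 in empty vector cells, a difference of -1.01. Its further passing probe set was lower too, with 5.44 and 7.03 and a difference of -1.58. Probe sets of ZNF93 below the floor differed by -0.03 and 0.31. Both genes belong to the same cluster of chromosome 19. The 6 other ZNF91 probe sets lay below the floor in both arrays and differed between -0.22 and 0.20, so its value rests on 1 probe set.

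ZNF22 had 5.04 in miR-130b cells and 6.21 in empty vector cells, a difference of -1.17. Its other probe set lay below the floor in both arrays and differed by -0.38. ZNF124 had 4.98 with miR-130b and 5.85 with the empty vector, a difference of -0.87, and its second passing probe set differed by -1.01, at 4.77 and 5.78. ZNF93 and ZNF124 are the only genes of the 8 with a second passing probe set, and both of these were lower.

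The other 4 genes at least 1.5-fold lower each rest on 1 passing probe set. Their probe sets below the floor differed between -0.15 and 0.22. ZNF627 had 5.18 in miR-130b cells and 5.91 in empty vector cells, a difference of -0.73. ZNF875 had 5.08 and 5.78, a difference of -0.70. ZNF704 had 4.13 and 4.88, and ZNF85 had 4.56 and 5.17. ZNF704 and ZNF85 passed the floor only through the empty vector array, so some decrease was built into their selection, and without them 6 genes were 1.5-fold lower. The next gene in order, ZNF362, differed by -0.51, at 6.30 with miR-130b and 6.81 with the empty vector. Its probe sets below the floor differed by 0.10 and 0.12. After ZNF362 the differences became small, with -0.32 for ZNF430 and ZNF688 and -0.31 for ZNF107.

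At the other end, ZNF10 was highest. ZNF10, also called KOX1, is the protein whose KRAB domain is widely fused to DNA-binding proteins as a repressor. It had 6.19 in miR-130b cells and 5.53 in empty vector cells, 1.57-fold higher. That value comes from a probe set with the suffix _s_at, which marks probes shared between transcripts, and the unsuffixed passing probe set differed by -0.04, at 5.04 and 5.07. ZNF404 had 5.50 with miR-130b and 4.89 with the empty vector, 1.52-fold higher, from its only probe set, which stood just above the floor in empty vector cells.

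ZNF711, an X-linked gene whose product works with the histone demethylase PHF8, lay just short of 1.5-fold. It had 7.73 in miR-130b cells and 7.14 in empty vector cells, a difference of 0.58, and a probe set below the floor differed by 0.52. ZNF449 was higher by 0.55, ZNF565 by 0.53 and ZNF438 and ZNF595 by 0.50 each. ZNF432 and ZNF140 were higher by 0.48 and 0.44, and ZNF2, ZNF165 and ZNF667 by 0.44, 0.43 and 0.42. Probe sets below the floor differed by 0.18 for ZNF667, 0.14 for ZNF449, 0.12 for ZNF595 and -0.01 for ZNF438. Of the 12 ZNF genes with the highest differences, ZNF10 alone had a second passing probe set, so none of these increases has a second passing probe set that is also higher.

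**Figure D2:**
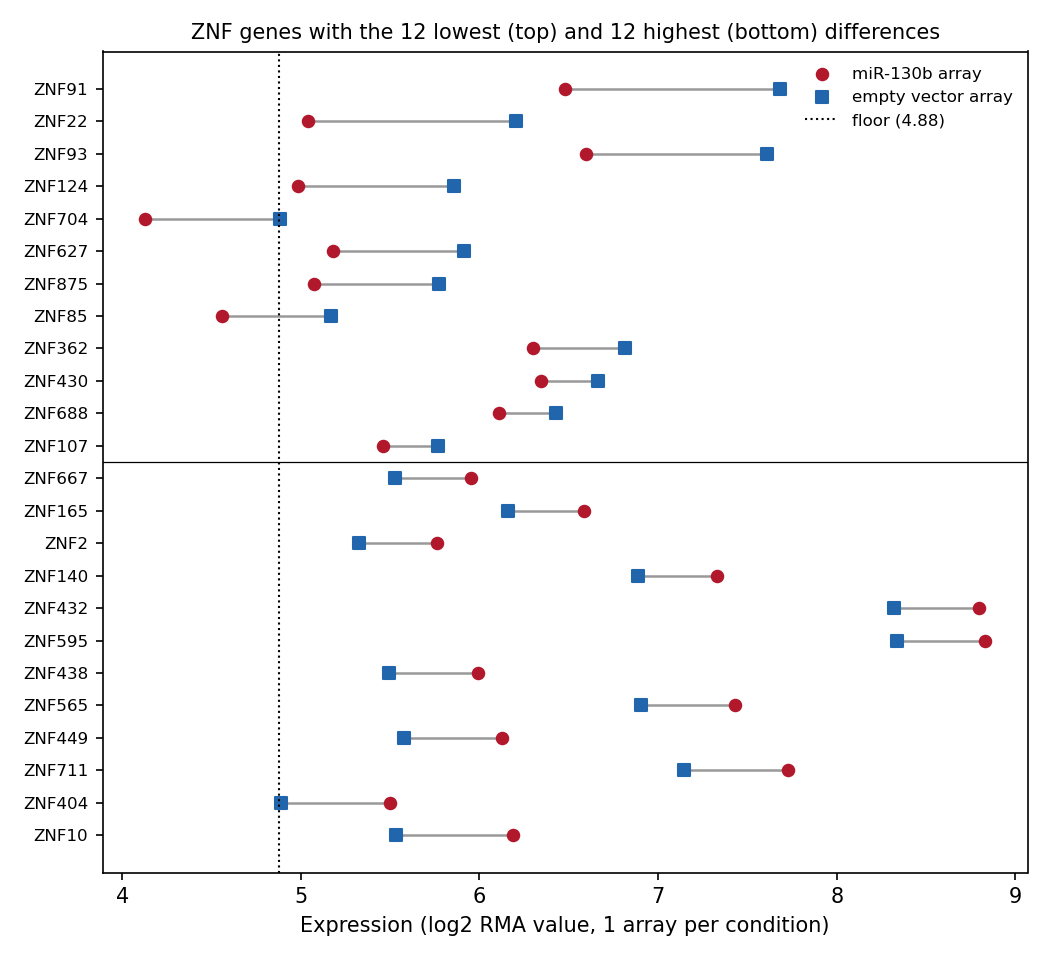
The log2 RMA value of each gene is drawn for the miR-130b array (red circles) and the empty vector array (blue squares), 1 array per condition, for the ZNF genes with the 12 lowest and the 12 highest differences. The dotted line is the floor of 4.88: ZNF704 and ZNF85 cross it, ZNF404 begins just above it, and the longest lines are those of ZNF91, ZNF22 and ZNF93.

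Probe sets of the same gene give the only technical error available. Among 103 ZNF genes with at least 2 passing probe sets, differences within a gene had a pooled SD of 0.170 (log2), a figure that leaves out any spread between cultures. Of 139 further passing probe sets, 79 had the sign of the probe set that represents the gene. This SD is about as large as the upper quartile of the ZNF differences, which was 0.18. Of 26 ZNF genes with at least 3 passing probe sets, 7 had all of them on 1 side of 0. The same share over all measured genes was not computed, so this count cannot show whether such agreement was more frequent among ZNF genes. ZNF652, a repressor that works with the corepressor CBFA2T3, had differences between 0.12 and 0.37 over 4 probe sets. ZNF12 had differences between 0.07 and 0.28 over 4, ZNF500 between 0.07 and 0.32 over 3 and ZNF791 between 0.03 and 0.45 over 3. ZNF638 and ZNF264 were higher throughout by at most 0.11 and 0.17, and ZNF496 was lower throughout, by at most 0.11 in size.

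Among 12 KRAB genes with a described repressive role, 9 were measured, with a median of 0.04. ZNF91 and ZNF93 were beyond 1.5-fold on the lower side, ZNF10 on the higher side, and 6 lay between. Of all measured genes 2.68% were lower and 0.294% higher by that rule. ZNF274, which recruits SETDB1 to the coding ends of other zinc finger genes, had 8.998 in miR-130b cells and 8.613 in empty vector cells, a difference of 0.39, but a dimmer probe set differed by -0.10. ZNF268 differed by -0.14 and ZNF445, a regulator of imprinted genes, by 0.09, with -0.28 in its dimmer probe set. ZNF202, with 1 passing probe set, differed by 0.05. ZNF224 differed by 0.04, but by 0.51 and -0.11 in 2 dimmer probe sets. ZNF765 differed by -0.04, but a probe set of nearly the same mean had 6.80 in miR-130b cells and 6.21 in empty vector cells, a difference of 0.59 that is beyond 1.5-fold, and the dimmest differed by -0.13. ZNF350, ZNF382 and ZNF649 did not reach the floor. The median was 0.018 after loess centring and 0.011 after median centring, while the mean of the list was -0.13.

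Of 24 promoter, enhancer and chromatin regulators, 20 were measured, 16 were higher and 4 lower, where 56.1% of all measured genes were higher. The counts were 15 and 14 higher after loess and median centring. None was beyond 1.5-fold, and the median was 0.08, against 0.03 over all measured genes, or 0.050 and 0.051 after loess and median centring. After ZNF711, the highest was ZNF281, a MYC-associated factor tied to stemness and epithelial to mesenchymal transition. It had 9.58 in miR-130b cells and 9.24 in empty vector cells, a difference of 0.34, and its 2 further probe sets differed by 0.04 and -0.14. ZNF296 differed by 0.33 and ZNF143, which binds many promoters together with the snRNA activating machinery, by 0.31, at 8.03 with miR-130b and 7.72 with the empty vector. ZNF652 differed by 0.22, ZNF644, a partner of the G9a and GLP methyltransferases, by 0.16, with -0.11 in a dimmer probe set, and ZNF24 by 0.12, with -0.04 and 0.02 in further ones. ZNF217, a component of CoREST complexes amplified in breast cancer, differed by 0.06. ZNF148 differed by -0.01 where it was brightest, and by -0.47, -0.42 and 0.06 in 3 dimmer probe sets. ZNF516 was the lowest of this list at -0.27 and passed only through the empty vector array. ZNF423, ZNF462, ZNF503 and ZNF521 did not reach the floor.

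ZNF proteins that act on RNA, ribosomes, ubiquitin, the spindle or the cytoskeleton also stayed within 1.5-fold, with 13 of 15 listed genes measured. Of these 8 were higher and 5 lower, where 56.1% of all measured genes were higher. The median was 0.06, or 0.026 and 0.028 after loess and median centring. ZNF622, needed for maturation of the large ribosomal subunit, had 9.01 in miR-130b cells and 8.70 in empty vector cells, a difference of 0.31. ZNF830 was higher by 0.25, with -0.03 in a dimmer probe set. ZNF598, the ubiquitin ligase that marks collided ribosomes, differed by 0.00, and ZNF593 by 0.06. ZNF346, which binds double-stranded RNA, was lowest of the list at -0.22, with 0.01 in a dimmer probe set. ZNF207, a BUB3 partner at kinetochores, differed by -0.16 at 10.41 with miR-130b and 10.57 with the empty vector, but 6 of its 8 passing probe sets were higher, up to 0.45. ZNF185, a LIM-domain protein that binds actin, differed by 0.07.

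The differences were also described by position along the chromosomes. RefSeq places 124 of the 282 genes (44.0%) on chromosome 19, where the median difference was 0.05, as on all other chromosomes together. The other 848 measured genes of chromosome 19 had a median of -0.01, with 47.1% higher. Runs of neighbours were formed from ZNF genes with at most 2 other protein-coding genes between them, and 7 runs with at least 8 measured members held 89 ZNF genes. A run is named by its first and last ZNF gene in RefSeq order, whether or not these were measured.

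In the run from ZNF101 to ZNF254, 12 of 37 genes were measured. Of these 9 were lower and 3 higher, where 5556 of all 13262 measured genes were lower. The run had a median of -0.16. It holds ZNF91, ZNF93 and ZNF85, so that 3 of 12 genes were at least 1.5-fold lower, against the 2.68% of all measured genes given above. ZNF85 passed only through the empty vector array, and with the floor required in both arrays the count was 2 of 11, against 1.99% of all measured genes. ZNF430, ZNF253 and ZNF254 followed with -0.32, -0.30 and -0.26. ZNF738, ZNF493 and ZNF43 lay between -0.06 and -0.04, and ZNF14, ZNF101 and ZNF626 were higher by 0.31, 0.25 and 0.23. Of the 20 ZNF genes with the lowest differences, 6 belong to this run. The direction depended on the probe sets: 7 of the 12 genes are represented by probe sets with the suffixes _x_at or _s_at, whose probes can bind relatives, and among the 5 others 3 were higher and 2 lower. Without suffixed probe sets the median of the run was 0.083 over 6 genes, and with the floor required in both arrays, which drops ZNF85, it was -0.063. Of 3 further passing probe sets in the run, 2 were lower and 1 was higher.

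The run from ZNF627 to ZNF791 was also mostly lower, with a median of -0.13. In it 8 of 10 measured genes were lower, where 5556 of all 13262 measured genes were. ZNF627 stood lowest at -0.73, ZNF44 differed by -0.27 and ZNF700 by -0.22, and ZNF823 and ZNF791 were higher by 0.17 and 0.03. Counting only the 6 genes with unsuffixed probe sets, 4 were lower and the median was -0.10. Its 2 further passing probe sets, both of ZNF791, were higher.

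The opposite direction was seen in 2 runs. From ZNF283 to ZNF180, 10 of 12 measured genes were higher, where 56.1% of all measured genes were. The median of the run was 0.22, and the median of the 6 with unsuffixed probe sets was the same. ZNF404 led with 0.61, followed by ZNF226 with 0.32, at 8.58 in miR-130b cells and 8.26 in empty vector cells. ZNF235, ZNF230, ZNF180, ZNF45, ZNF225 and ZNF222 lay between 0.20 and 0.26, while ZNF155 and ZNF284 were lower, by 0.13 and 0.05 in size. From ZNF565 to ZNF573, 10 of 12 were higher, against the same 56.1%, with a median of 0.18. ZNF565 had 7.43 with miR-130b and 6.91 with the empty vector, and ZNF529, ZNF420 and ZNF567 were higher by 0.29, 0.26 and 0.23. ZNF875 at -0.70 and ZNF527 at -0.19 lay within the same run. Further passing probe sets were higher in 3 of 5 for the run from ZNF283 and in 2 of 2 for the run from ZNF565. Both centring alternatives left the signs of these 4 medians as they were.

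The 3 other runs had medians near that of all measured genes, of which 56.1% were higher. In the run from ZNF577 to ZNF331, 6 of 11 genes were higher and the median was 0.09, with ZNF432, ZNF331 and ZNF614 at 0.48, 0.39 and 0.35, of which ZNF614 passed the floor only in miR-130b cells. The run with the most measured genes, from ZNF264 to ZNF8, had 10 of 23 genes higher and a median of -0.04, and ZNF274 stood apart from its neighbours at 0.39. On chromosome 7, the run from ZNF786 to ZNF862 had 5 of 9 genes higher and a median of 0.01, or -0.0074 after loess centring and -0.017 after centring on the median of all measured genes. The differences between runs were not tested, since genes are not replicates of a condition.

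**Figure D3:**
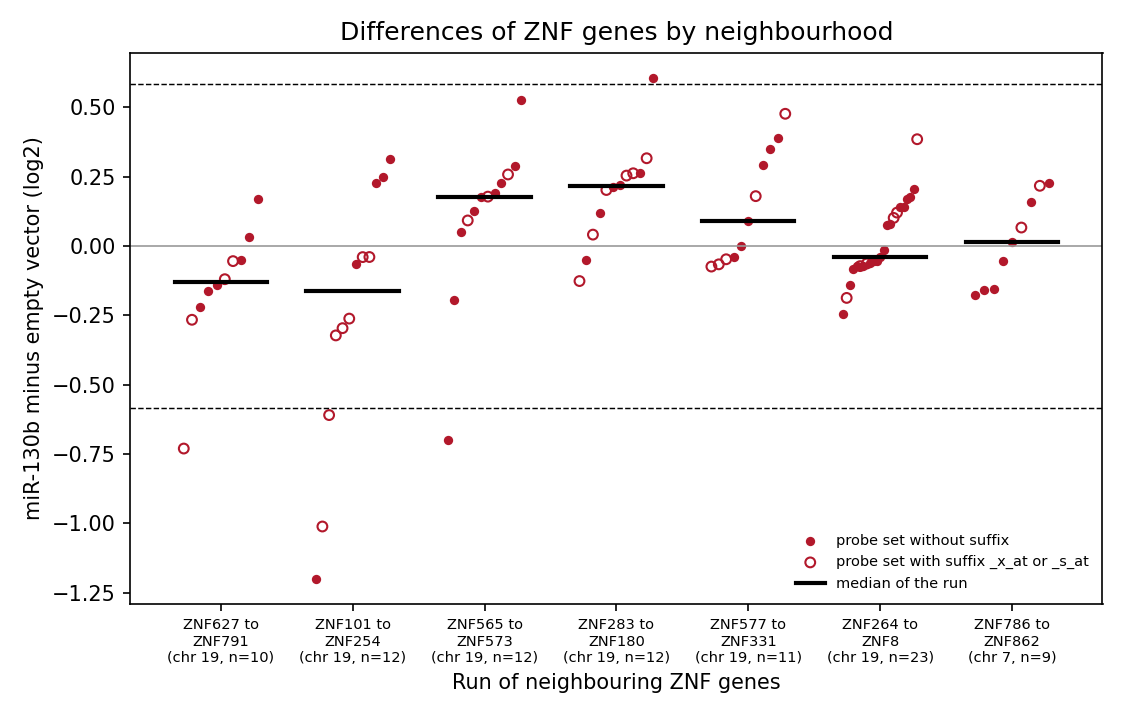
Each point is the miR-130b minus empty vector difference (log2) of a ZNF gene, grouped by run of neighbouring genes, with filled points for unsuffixed probe sets, open points for _x_at and _s_at probe sets, a bar at the median of each run and dashed lines at 1.5-fold. The runs from ZNF627 and ZNF101 have medians of -0.13 and -0.16, those from ZNF565 and ZNF283 have 0.18 and 0.22, and most points of every run lie between the dashed lines.

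The promoters of the run with ZNF91 resemble each other. RefSeq promoters on GRCh38.p14 were found for 245 of the 282 ZNF genes, and the 250 bases before the start were compared by global alignment. Pairs from the run between ZNF101 and ZNF254 had a median identity of 77.8% over 45 pairs of 10 promoters. Pairs within the 6 other runs had medians between 50.3% and 52.0%, and pairs from different runs 50.2%. Shown are ZNF91 and ZNF93, the 2 genes of the run with the lowest differences, ZNF626, whose promoter is the most similar to that of ZNF93 and which was higher, and ZNF565 from a run that was mostly higher. Capitals mark the GC box core GGGCGG, to which SP1 binds, the CCAAT box of the factor NF-Y and the ETS core CCGGAA, each on either strand. ZNF91 lies at chr19:23395472-23395721 on the minus strand, ZNF93 at chr19:19900696-19900945 on the plus strand, ZNF626 at chr19:20661572-20661821 on the minus strand and ZNF565 at chr19:36215085-36215334 on the minus strand.
ZNF91: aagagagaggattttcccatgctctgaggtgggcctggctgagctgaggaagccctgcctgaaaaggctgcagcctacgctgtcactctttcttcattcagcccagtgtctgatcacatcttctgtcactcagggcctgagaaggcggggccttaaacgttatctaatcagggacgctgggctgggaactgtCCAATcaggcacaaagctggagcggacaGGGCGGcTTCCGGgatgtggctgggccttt
ZNF93: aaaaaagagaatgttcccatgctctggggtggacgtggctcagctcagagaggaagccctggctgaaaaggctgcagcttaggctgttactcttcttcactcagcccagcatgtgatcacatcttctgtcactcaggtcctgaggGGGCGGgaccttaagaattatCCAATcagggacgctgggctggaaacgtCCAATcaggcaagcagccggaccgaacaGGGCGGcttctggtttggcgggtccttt
ZNF626: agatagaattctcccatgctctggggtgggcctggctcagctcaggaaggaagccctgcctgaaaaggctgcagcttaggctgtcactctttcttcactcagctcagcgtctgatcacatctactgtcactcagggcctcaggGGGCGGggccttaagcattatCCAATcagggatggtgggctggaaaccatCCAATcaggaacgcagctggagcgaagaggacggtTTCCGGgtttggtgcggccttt
ZNF565: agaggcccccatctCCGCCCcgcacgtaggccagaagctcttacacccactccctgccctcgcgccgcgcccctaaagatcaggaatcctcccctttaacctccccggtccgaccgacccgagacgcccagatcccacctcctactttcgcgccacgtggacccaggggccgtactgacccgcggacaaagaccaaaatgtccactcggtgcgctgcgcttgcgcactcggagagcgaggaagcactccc
The promoters of ZNF91 and ZNF93 were 83.1% identical, and that of ZNF626 was 84.7% identical to ZNF91 and 85.0% to ZNF93. ZNF626 nevertheless had 5.35 in miR-130b cells and 5.13 in empty vector cells, a difference of 0.23, next to -1.20 for ZNF91 and -1.01 for ZNF93. ZNF565 was 48.6% to 49.5% identical to these 3. Of the 10 promoters, 8 were between 75.8% and 85.0% identical in their 28 pairs, those of ZNF91, ZNF93, ZNF85, ZNF430, ZNF254, ZNF493, ZNF43 and ZNF626. Of these 8 genes 7 were lower, between -1.20 and -0.04, and ZNF626 was higher, where 5556 of all 13262 measured genes were lower. ZNF493 and ZNF43, each at -0.04, lay within the SD of 0.170 between probe sets. With 1 array per condition the direction is not settled for any of the 8 genes. The genes of the other 2 promoters, ZNF101 and ZNF14, had median identities of 53.3% and 50.9% to the rest of the run and were higher. No promoter was compared for ZNF253 and ZNF738 of the same run, which differed by -0.30 and -0.06. Grouping by promoter was done after the values were seen, and 6 of the 8 related genes are represented by suffixed probe sets. The others are ZNF91, which was lower, and ZNF626, which was higher. The part of suffixed probe sets in the direction of these genes was not tested.

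Short motifs were counted in the same 250 bases on both strands, each on its own, so that overlapping matches of different motifs count for each. CCGGAA, the core bound by ETS factors, was present in 41.2% of the 245 ZNF promoters, in 23.7% of the promoters of measured genes and in 14.8% of all 27305 promoters. CCAAT was present in 44.5% of ZNF promoters, 34.5% of those of measured genes and 33.0% of all. GGGCGG was present in 64.9%, 65.1% and 42.3%, and TATAAA in 2.45%, 5.85% and 11.1%, in the same order. The median difference of ZNF genes with CCGGAA was 0.08 and of those without it 0.06, and for GGGCGG these were 0.05 and 0.07. A motif match describes the letters in this window and shows no binding.

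The partners through which KRAB proteins act were measured on the same arrays. Of 24 listed genes, 22 were measured, with 12 higher and 10 lower, where 56.1% of all measured genes were higher. The median was 0.02, and 1 gene was at least 1.5-fold lower, where 2.68% of all measured genes were. TRIM28, the scaffold that KRAB domains bind, had 10.92 in miR-130b cells and 11.13 in empty vector cells, a difference of -0.21 from 1 probe set. SETDB1 differed by -0.05 in its brighter probe set and by 0.26 in the other, and its cofactor ATF7IP was lower in all 3 probe sets, by -0.21 in the brightest. CBX5, which encodes HP1 alpha, had 9.03 with miR-130b and 9.64 with the empty vector, a difference of -0.61, but its 5 probe sets reached up to 0.10. The HP1 genes CBX3 and CBX1 were higher by 0.17 and 0.11.

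Genes of the HUSH complex, which silences retrotransposons, were higher in their representing probe sets. TASOR had 8.91 in miR-130b cells and 8.60 in empty vector cells, a difference of 0.31, and MPHOSPH8 was higher by 0.20, each with every passing probe set higher. PPHLN1 differed by 0.10 where it was brightest, and by -0.78 in a dimmer probe set. MORC2, from the same partner list, was lower in all 3 passing probe sets, between -0.18 and -0.05. RBAK and MORC3 had the highest differences of the list, 0.44 and 0.41, from 1 probe set each. HDAC1, HDAC2, CHD3, CHD4, DNMT1 and UHRF1 lay between -0.05 and 0.12. The median of the list turned to -0.0050 after loess centring and -0.0059 after median centring, so it has no settled direction.

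**Figure D4:**
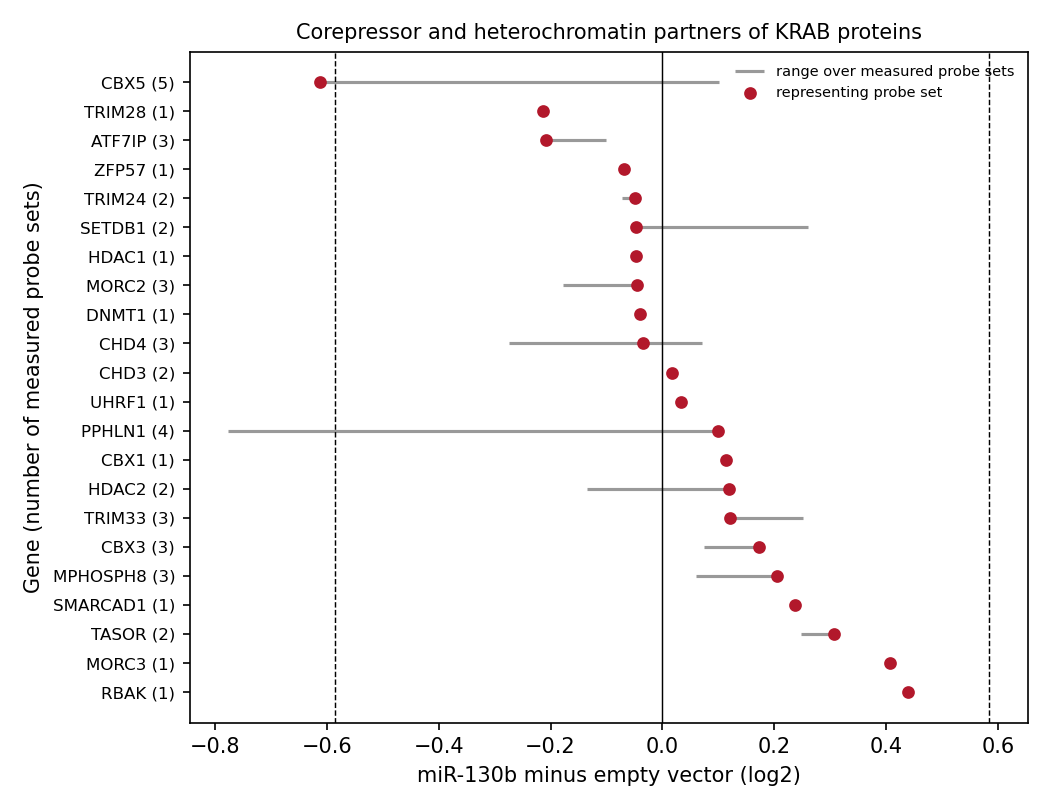
The miR-130b minus empty vector difference (log2) of each measured partner gene is drawn as a point for the representing probe set, and a grey line spans all passing probe sets, whose number stands beside the gene. CBX5 at -0.61 is the only point beyond the dashed 1.5-fold lines, and its line reaches 0.10, on the other side of 0.

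Other zinc finger families, selected by symbol and measured by the same rule, had medians between -0.08 and 0.12, against 0.03 over all measured genes, of which 56.1% were higher. The 33 ZBTB genes had a median of 0.11 with 24 higher, the 12 ZFP genes 0.12 with 10 higher, and the 14 KLF genes 0.06 with 9 higher. The 6 ZKSCAN genes had a median of 0.05. The median of the 13 ZSCAN genes was 0.02 and turned to -0.0038 after loess centring and -0.016 after median centring. The 4 ZNHIT genes had a median of 0.10 with 3 higher. All 5 ZMYND genes were lower, with a median of -0.08, or -0.11 after either centring. The 7 ZC3H genes had a median of 0.03 with 4 higher, and 3 after either centring, where the median turned to -0.00022 and -0.0054. Of the 33 ZBTB genes 1 was at least 1.5-fold lower, as was 1 of the 14 KLF genes, where 2.68% of all measured genes were. In these families 0 genes were 1.5-fold higher, against 0.294% of all measured genes.

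The brightest ZNF gene was ZNF664, with 11.66 in miR-130b cells and 11.50 in empty vector cells. ZNF706 had 10.95 and 10.98, and ZNF721 had 10.42 in both. ZNF121 and ZNF146 were higher by 0.25 and 0.19, and ZNF511 and ZNF277 by 0.15 and 0.13, while ZNF451, a SUMO ligase, differed by -0.05 where it was brightest and by 0.33 and 0.21 in 2 further probe sets. The further probe sets of ZNF664 differed by -0.22 and 0.14, those of ZNF277 by -0.06 and -0.05, and that of ZNF146 by 0.33. With ZNF207 and ZNF281, described above, these are the 10 ZNF genes with the highest mean, and all 10 lay within 1.5-fold.

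ZNF genes with a mean of 8 or above were more often higher in miR-130b cells than dimmer ones, mainly in the class from 8 to 9. The level classes were drawn after the values had been seen, and probe set signals rank genes only roughly by abundance. All 26 ZNF genes with a mean between 8 and 9 were higher, with a median of 0.15, where 59.2% of the 2294 measured genes of that class were. At 9 or above 12 of 17 ZNF genes (70.6%) were higher, with a median of 0.09, against 60.8% of all measured genes there. From 8 upward 38 of 43 ZNF genes (88.4%) were higher, against 60.1% of all measured genes from 8 upward. Below 8 the share was 51.0% of 239 ZNF genes, against 53.1% of all measured genes there. Among these 43 were ZNF595, ZNF432, ZNF331, ZNF274 and ZNF558, higher by 0.50, 0.48, 0.39, 0.39 and 0.35. The 4 lower ones were ZNF207, ZNF160, ZNF451 and ZNF706, between -0.16 and -0.03 in their brightest probe sets, and ZNF721 had the same value in both arrays. Further passing probe sets of the 43 genes were higher in 33 of 47 (70.2%), with a median of 0.08. Of the 6076 further probe sets of all genes from 8 upward 50.03% were higher, with a median of 0.00. After either centring 37 of the 43 were higher. None of the 43 reached 1.5-fold.

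**Figure D5:**
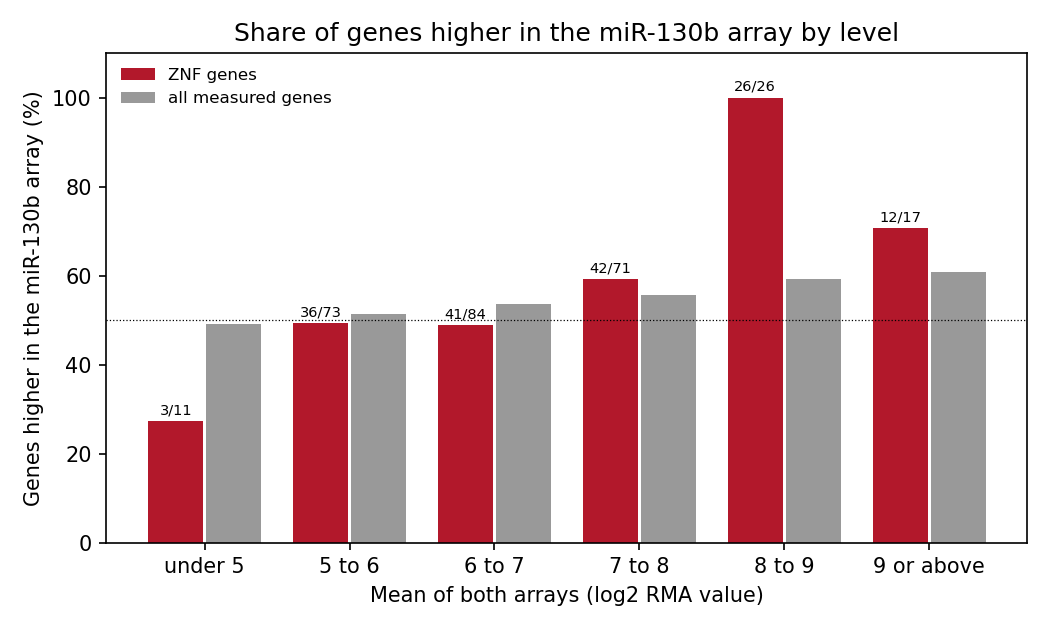
Bars give the percentage of genes higher in miR-130b cells within classes of the mean log2 RMA value, for ZNF genes (red, with counts above) and for all measured genes (grey). The share of ZNF genes reached 26 of 26 in the class from 8 to 9, where 59.2% of all measured genes were higher. At 9 or above it was 12 of 17, against 60.8%. Under 5 it was 3 of 11, against 49.1%, but the floor fixed most directions in that class. There 6 ZNF genes passed only in the empty vector array and had to be lower, and 2 passed only in the miR-130b array and had to be higher. The dotted line marks equal shares.

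The floor left out 143 of the 425 ZNF genes, and a few lay next to it. Just inside it by the brighter array were ZNF704, ZNF34 and ZNF570, with 4.88, 4.90 and 4.93. Just outside were ZNF114, ZNF418 and ZNF583, each with 4.87 or 4.86 in empty vector cells, and ZNF114 had 4.32 in miR-130b cells.

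The arrays also differed outside the ZNF genes. Markers of the labelled cell type were present: all 8 hepatocyte and liver tumour markers passed the floor, and their levels did not differ alike. TTR had 5.92 in miR-130b cells and 9.26 in empty vector cells, ALB had 10.96 and 11.99, and AFP and APOA1 were lower by 0.57 and 0.51 in size, while APOB, FGB, SERPINA1 and TF lay between 0.01 and 0.08. Of the other lists, 3 of 4 leukocyte markers lay below the floor in both arrays, while LYZ had 9.46 in miR-130b cells and 9.77 in empty vector cells. Of 4 endothelial markers 2 were below it, while PECAM1 had 8.72 in miR-130b cells and 8.51 in empty vector cells, and TEK had 5.69 and 5.53. All 4 stromal markers passed in both arrays, with a median of 5.24 in miR-130b cells and 6.19 in empty vector cells. COL1A2 had 4.90 in miR-130b cells and 7.98 in empty vector cells, whereas COL1A1 and DCN each differed by -0.08 and THY1 by 0.24. PROM1, which encodes CD133, had 6.07 and 9.19 although both cultures came from CD133-negative cells. The ratio of 3' to 5' control signal was 2.41 in miR-130b cells and 1.95 in empty vector cells for ACTB, and 1.52 and 1.37 for GAPDH. Whether RNA integrity or cell composition had a part in the ZNF differences was not tested.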

How the data were processed

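The authors deposited 1 table of log2 expression values for 54675 probe sets and 2 arrays, and per the submitters' processing notes they are RMA values, with no version stated. The settings and the set of arrays normalized as 1 group are not stated in those notes. Both column medians were 4.88. Having 1 array per condition limits the precision. Of 54613 non-control probe sets, 41091 had 1 symbol in GEO's platform annotation, 1801 several and 11721 none, and only the first named a gene.

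Each probe set's empty vector value was subtracted from its miR-130b value, and genes were counted beyond 1.5-fold (0.58) and 2-fold as rules of size. Groups came from the sample titles. Members and lists were chosen with earlier results of these data known. Chosen for naming were the 12 lowest and 12 highest members, every one beyond 1.5-fold, the brightest 10 and the floor neighbours. The role and partner lists and members with at least 3 probe sets on 1 side were added. Some measured genes of the role and partner lists are counted in the text but not named. Genes named within runs and level classes were chosen after their values were seen. Runs used the gene order of GRCh38.p14, in which all 282 symbols were found. The planned KRAB and finger counts need protein sequences, which were not used here. The computation was checked on simulated data. Tools were Biopython 1.88 (match 1, mismatch -1, gap opening -2, extension -0.5), statsmodels 0.14.6, pandas 2.3.3, matplotlib 3.10.9, scipy 1.17.1 and numpy 2.4.6, under Python 3.11.15. Alternatives were the floor in both arrays, at the 75th percentile (6.98) or dropped, the mean of probe sets, no _x_at or _s_at probe sets, loess centring (span 0.3) and median centring.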

Additional observations from a re-analysis of the deposited data

How the results depend on the processing

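A floor at the 75th percentile left 122 ZNF genes, with 2 at least 1.5-fold lower, 0 higher, 69.7% above 0 and a median of 0.084. Of the 8287 genes of any kind at that floor, 58.4% were above 0, with a median of 0.037. By the 1.5-fold rule 2.34% of those 8287 were lower and 0.193% higher. The run from ZNF101 to ZNF254 kept 2 genes at that floor, with a median of -1.11. Without _x_at and _s_at probe sets the counts beyond 1.5-fold were 5 on the lower side and 1 on the higher side, and ZNF10 turned to -0.037. Of all genes measured in that way 2.58% were lower and 0.344% higher by this rule. Averaging the probe sets of a gene left 1 gene 1.5-fold higher, as did centring on the median of all measured genes. The shares of all measured genes there were 0.226% and 0.189%. Under the 7 alternatives, 462 of 479 values of the 75 ZNF genes chosen for naming moved by no more than the SD between probe sets. This count says little about stability, because the floor and centring alternatives mostly keep the representing probe set of a gene. Averaging the probe sets moved 11 of 75 genes by more than that SD. Without _x_at and _s_at probe sets 5 of 63 moved and 1 reversed. The share of higher genes among those with a mean of 8 or above lay between 86.0% and 93.5%. Run medians changed sign for ZNF101 to ZNF254 without suffixed probe sets (0.083), for ZNF577 to ZNF331 without a floor (-0.041) and for ZNF264 to ZNF8 without a floor and at the 75th percentile (0.076 in both), and for ZNF786 to ZNF862 under 4 alternatives (lowest -0.10). Alternatives for runs, partners and bright genes were chosen after seeing the data. The causes were not tested. KRAB medians were not run, for want of protein sequences. No paired analysis was possible because each condition has 1 array. Without a detection call, signal over background cannot be judged for values near the floor.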

Other observations

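ZNF symbols with a letter after the number lie outside the rule that chose the genes above. Of 22 measured, 17 were higher in miR-130b cells and 4 lower, where 56.1% of all measured genes were higher. Their median was 0.06, against 0.03 over all measured genes, and none was beyond 1.5-fold. The pseudogene ZNF204P was highest at 0.55, with 7.84 in miR-130b cells and 7.29 in empty vector cells, and ZNF286A was lowest at -0.40, with 6.30 and 6.70. Another 27 passing probe sets carry a ZNF symbol together with a further symbol. The median of these probe sets was 0.05 and 0 of them was beyond 1.5-fold in either direction. Of all measured genes 2.68% were lower and 0.294% higher by that rule. The genes named here were chosen after their values were seen.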
